A study of Mus musculus with 38 samples.

Results

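Transcripts of 6 genes from signalling systems better known from nerve cells were followed through 14 RNA libraries of mouse CD4 T helper cells: Penk, Calca, Calcrl, Ramp1, Htr1b and Tph1. These 6 genes were taken by symbol out of the 23700 entries of each deposited gene table. They were chosen by their FPKM levels in these same libraries; which of the contrasts served the choice is not recorded and no threshold was set, so the levels are a description and the Th2 against Th1 contrast is given without a test. Where an adjusted p is printed for one of them, it states where the gene stood in a fit over all 11121 genes tested and is not independent evidence.

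The cells were naive CD4 T cells sorted from spleen and lymph nodes of C57BL/6J mice of unstated age and polarised in vitro. Day 7 cultures without a virus, restimulated for 2 h through CD3 and CD28 with the lineage's cytokine (IL-4 for Th2, IL-12 for Th1), gave 1 library each of STAT6 KO Th2 (Stat6 tm1 allele), WT Th2, T-bet KO Th1 (Tbet tm1) and STAT4 KO Th1 (STAT4 tm1), and 2 of WT Th1. Retrovirally transduced cultures, labelled day 5 (those of Th1 cells also day 7), gave 1 library each of STAT6 KO Th2 and WT Th2 cells with a GATA3 vector or a control vector, and of STAT4 KO Th1 and WT Th1 cells with a T-bet vector or a control vector. The Th1 vectors are pMY-IRES-hNGFR constructs, with human NGFR as marker. The labels do not say whether marked cells were purified or whether Th2 vector cultures were restimulated. STAT6 and STAT4 pass on the IL-4 and IL-12 signals, and GATA3 and T-bet are the lineage-defining factors of Th2 and Th1 cells. The series asks how these factors shape expression and whether an added GATA3 or T-bet stands in for a missing STAT.

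In the nervous system Penk encodes preproenkephalin, which is cut into the opioid enkephalins. Calca encodes calcitonin and, by alternative splicing, calcitonin gene-related peptide (CGRP), a neuropeptide of sensory nerves. The CGRP receptor is a pair of proteins, the G protein-coupled receptor encoded by Calcrl and its partner encoded by Ramp1; with other partners Calcrl binds adrenomedullin. Serotonin is made from tryptophan in cells outside the brain by tryptophan hydroxylase 1, encoded by Tph1, and Htr1b encodes a Gi-coupled serotonin receptor. Lymphocytes carry receptors for CGRP, enkephalins and serotonin, and helper T cells have been described to make enkephalin.

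Promoter sequences are shown for the pair of members that were high in WT Th2 and low in STAT6 KO Th2 without added GATA3 (Calcrl and Htr1b) and for the pair that were high with the GATA3 vector (Calca and Tph1), to show what lies at their start sites. They come from RefSeq on build GRCm38.p6 and run 5′ to 3′ along the gene, 250 bases before and 50 after each start; the table held such entries for 5 of the 6 members, with 2 starts for Tph1. Capitals mark matches, on either strand, to the STAT6-type motif (the palindromic STAT motif with a spacer of 4 bases), to TTCNNNGAA (STAT4-type), or to a GATA-type motif, which was searched as AGATAA and, with another first base, as TGATAA.
Calca promoter, chr7:114636308-114636607, minus strand: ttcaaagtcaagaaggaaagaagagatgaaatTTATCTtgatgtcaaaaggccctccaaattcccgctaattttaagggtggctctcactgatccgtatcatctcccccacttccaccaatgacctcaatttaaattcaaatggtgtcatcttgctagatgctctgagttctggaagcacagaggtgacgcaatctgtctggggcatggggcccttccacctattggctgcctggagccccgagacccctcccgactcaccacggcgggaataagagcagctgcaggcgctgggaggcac
Tph1 promoter, upstream start, chr7:46672488-46672787, minus strand: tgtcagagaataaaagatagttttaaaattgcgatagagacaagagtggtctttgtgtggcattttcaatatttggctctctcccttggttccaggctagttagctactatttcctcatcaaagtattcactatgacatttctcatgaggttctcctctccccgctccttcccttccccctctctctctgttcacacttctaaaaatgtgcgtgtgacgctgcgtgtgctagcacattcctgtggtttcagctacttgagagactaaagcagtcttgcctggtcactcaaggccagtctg
Tph1 promoter, downstream start, chr7:46667328-46667627, minus strand: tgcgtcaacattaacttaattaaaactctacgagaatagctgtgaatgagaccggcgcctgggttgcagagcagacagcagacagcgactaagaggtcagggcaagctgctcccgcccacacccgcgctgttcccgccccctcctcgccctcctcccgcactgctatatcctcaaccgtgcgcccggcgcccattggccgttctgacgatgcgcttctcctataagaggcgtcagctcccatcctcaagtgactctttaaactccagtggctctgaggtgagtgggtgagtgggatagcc
Calcrl promoter, chr2:84425217-84425516, minus strand: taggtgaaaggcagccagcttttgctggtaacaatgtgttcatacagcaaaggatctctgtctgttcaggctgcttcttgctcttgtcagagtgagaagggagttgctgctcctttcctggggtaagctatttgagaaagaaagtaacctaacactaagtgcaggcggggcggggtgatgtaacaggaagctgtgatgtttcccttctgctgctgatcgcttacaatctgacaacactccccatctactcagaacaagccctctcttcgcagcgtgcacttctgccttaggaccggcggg
Htr1b promoter, chr9:81633783-81634082, minus strand: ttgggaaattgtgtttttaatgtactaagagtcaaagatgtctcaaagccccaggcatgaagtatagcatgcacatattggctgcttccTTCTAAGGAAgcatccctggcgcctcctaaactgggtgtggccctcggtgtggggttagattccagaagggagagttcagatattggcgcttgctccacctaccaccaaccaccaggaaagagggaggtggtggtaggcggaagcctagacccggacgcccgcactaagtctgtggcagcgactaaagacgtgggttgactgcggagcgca
Calca had 1 GATA-type match, at position -218 from the start, and Htr1b 1 STAT6-type match, at position -161. Among the 32851 promoters of 300 bases in the table, 18.6% held a GATA-type, 6.95% a STAT6-type and 8.3% a STAT4-type match. The promoters of Tph1 and Calcrl, and that of Ramp1, held none of these letters. AGGTGT (T-box type), TGACGT (CRE type) and TGANTCA (AP-1 type) were searched as well, and the one match among members was AGGTGT in the Ramp1 promoter, a motif found in 13.7% of promoters; TGACGT was in 7.51% and TGANTCA in 7.81%. No motif searched here overlapped another in these sequences. These are matches of letters and not binding sites.

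Levels are given in FPKM, which scales fragments by transcript length and library size, as the authors deposited them. The libraries held an estimated 21900000 to 38530000 fragments in genes. The interval listed beside each value by Cufflinks covers counting error only. Groups other than WT Th1 hold 1 library. The labels name no separate cultures or mice, and p-values thus cover only these libraries. The spread they use is mostly misfit of the additive model, which sums the effects of the factors. Only the WT Th1 replicates add a difference between like libraries, which may be technical. WT Th1 replicate 2 and T-bet KO Th1 stood apart: they correlated with each other at 0.976 over genes and with the other 12 libraries at 0.676 to 0.801. Results are therefore given with and without a batch term for these libraries where the call differs. The batch term takes up the replicate difference of WT Th1. T cell markers summed to 1155 to 1213 FPKM in GATA3-vector libraries, against 1287 to 2041 in other Th2 and 1094 to 2475 in Th1 libraries, with all 10 markers detected at 1 FPKM or more in some library. Gata3 was at 376.9 FPKM in STAT6 KO and 588.9 in WT cells given the GATA3 vector, against 29.7 FPKM in STAT6 KO and 95.7 in WT cells given the control vector. Tbx21, which encodes T-bet, was at 4.19 FPKM in T-bet KO Th1, against 88.4 and 152.9 in WT Th1 replicates 1 and 2. Stat6 was at 23.3, 36.1 and 34.6 FPKM in STAT6 KO Th2 with the GATA3 vector, with the control vector and without a vector, against 47.95, 65.9 and 35.6 FPKM in WT Th2. It was lower in STAT6 KO in both vector pairs but close to WT without a vector. Stat4 was at 6.71, 7.57 and 17.6 FPKM in STAT4 KO Th1 with the T-bet vector, with the control vector and without a vector, against 37.1, 41.0 and 60.8 FPKM in WT, but at 15.1 in WT Th1 replicate 2.

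**Figure D1:**
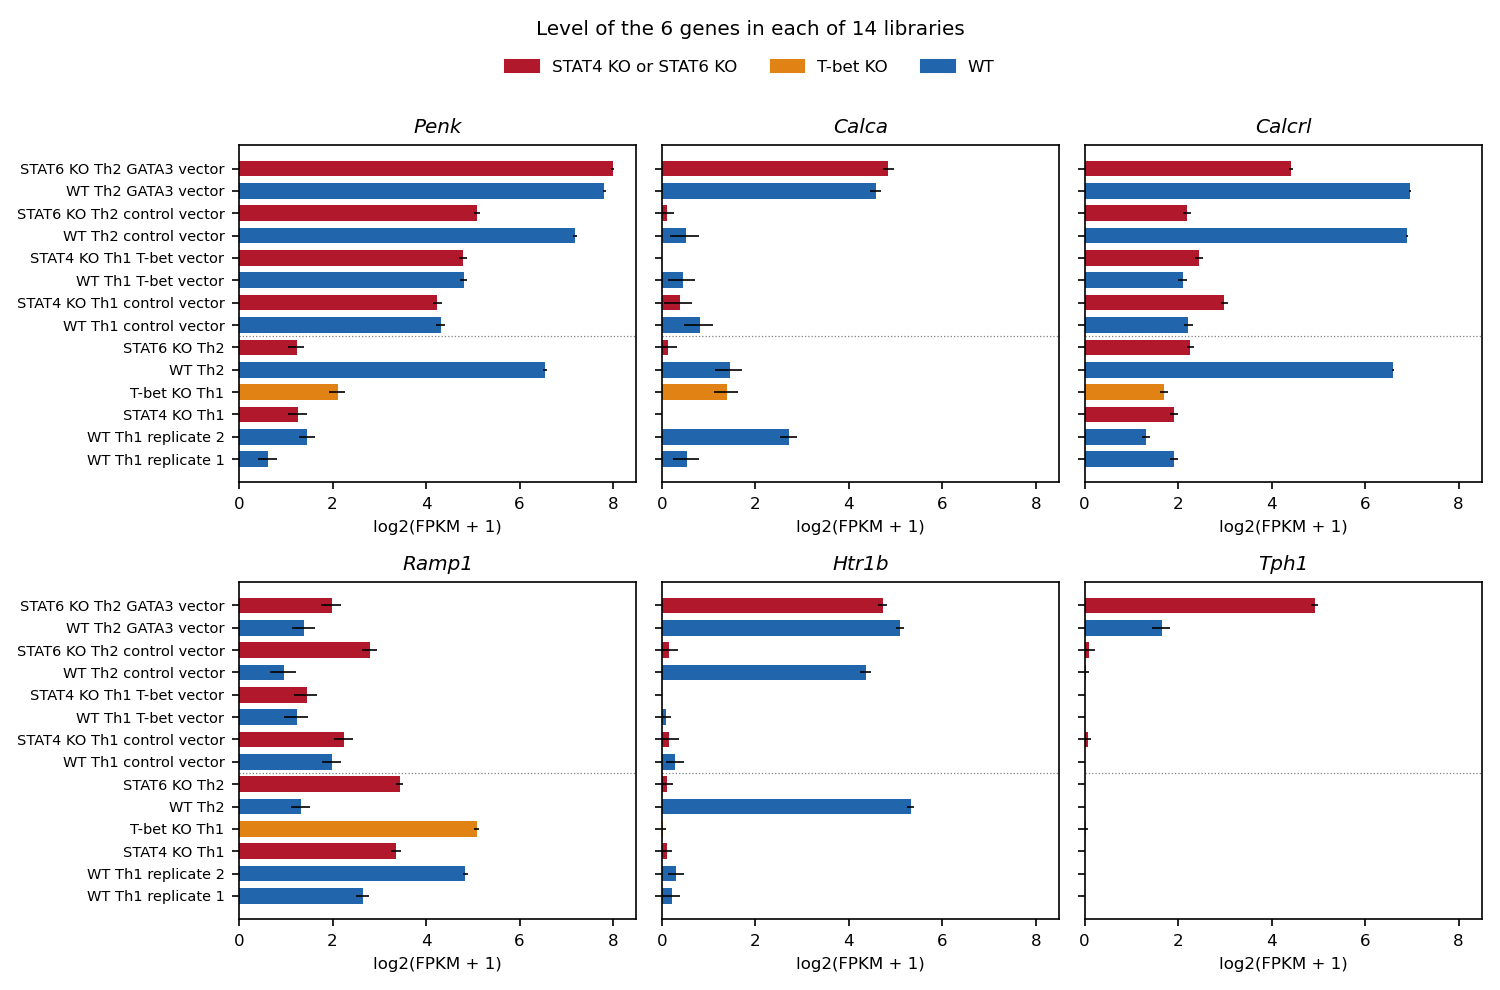
Level of each member, as log2(FPKM + 1), in each of the 14 libraries; bars are single libraries, coloured by genotype, error bars are the intervals listed in the deposited tables, and the dotted line parts vector cultures (above) from cultures without a vector (below). Penk, Calcrl and Htr1b stand high in the WT Th2 libraries, Calca and Tph1 in the pair of GATA3-vector libraries, and Ramp1 in WT Th1 replicate 2 and T-bet KO Th1.

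Penk, the enkephalin precursor, was the most abundant of the 6 genes at its highest. All positions of members in the tables are on build mm9. Penk lies on chromosome 4, 4060683 to 4065592, on the minus strand. In STAT6 KO Th2 libraries it was listed at 252.9 FPKM with the GATA3 vector, 33.1 with the control vector and 1.36 without a vector, against 224.2, 144.3 and 91.8 FPKM in the WT Th2 libraries of the same cultures. STAT6 KO was thus the lower of the pair without a vector and with the control vector, and slightly the higher with the GATA3 vector. In the 8 Th1 libraries Penk ran between 0.543 and 26.9 FPKM with a median of 10.6, and the groups parted by culture: 17.9 to 26.9 FPKM in the 4 vector libraries and 0.543 to 3.32 in the 4 libraries without one. The STAT6 KO library without a vector, at 1.36 FPKM, fell inside that last range, and its listed interval overlapped that of STAT4 KO Th1 at 1.40.

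Calca, the CGRP and calcitonin precursor, lies on chromosome 7, 121774992 to 121779871, on the minus strand, and its gene-level value does not part the calcitonin from the CGRP transcript. It reached 27.8 FPKM in STAT6 KO and 22.9 FPKM in WT Th2 cells with the GATA3 vector, against 0.0789 and 0.44 FPKM in STAT6 KO and WT Th2 cells with the control vector. Without a vector it stood at 0.104 FPKM in STAT6 KO Th2 and 1.75 in WT Th2. The GATA3-vector libraries were above every other library. The next highest was WT Th1 replicate 2 at 5.58 FPKM, against 0.456 in WT Th1 replicate 1, and T-bet KO Th1 had 1.64. The remaining Th1 libraries lay between 0 and 0.767 FPKM, STAT4 KO without a vector and STAT4 KO with the T-bet vector being listed at 0. Calcb, the gene of a second CGRP and the next gene on chromosome 7, stayed under 1 FPKM in every library, its highest values being 0.529 FPKM in STAT6 KO and 0.988 FPKM in WT Th2 with the GATA3 vector.

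Calcrl, the G protein-coupled subunit of the CGRP receptor, lies on chromosome 2, 84170783 to 84265423, on the minus strand. STAT6 KO Th2 libraries had 20.4 FPKM with the GATA3 vector, 3.58 with the control vector and 3.79 without a vector, against 124.0, 118.2 and 95.4 FPKM in the corresponding WT Th2 libraries. The lowest WT Th2 library stood above the highest STAT6 KO one in each culture and across cultures. Th1 libraries ran between 1.5 and 6.93 FPKM with a median of 3.03, a range that held the STAT6 KO libraries with the control vector and without a vector but not the one with the GATA3 vector.

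Ramp1, the partner that makes the Calcrl protein a CGRP receptor, lies on chromosome 1, 93076399 to 93121773, on the plus strand. It ran the other way in Th2 cells: 2.96, 5.96 and 9.81 FPKM in STAT6 KO with the GATA3 vector, with the control vector and without a vector, against 1.63, 0.958 and 1.52 FPKM in WT Th2. All 3 STAT6 KO libraries were above all 3 WT Th2 libraries. Its highest levels were those of the libraries that stood apart, 32.9 FPKM in T-bet KO Th1 and 27.7 in WT Th1 replicate 2, against 5.29 in WT Th1 replicate 1 and 9.28 in STAT4 KO Th1. In Th1 vector libraries it lay between 1.37 and 3.76 FPKM. The library with the most Calcrl, WT Th2 with the GATA3 vector, thus had 1.63 FPKM of Ramp1, and the 2 libraries with the most Ramp1 had 2.25 FPKM (T-bet KO Th1) and 1.5 FPKM (WT Th1 replicate 2) of Calcrl.

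Htr1b, the serotonin receptor gene, lies on chromosome 9, 81524999 to 81526159, on the minus strand. STAT6 KO Th2 libraries had 25.4 FPKM with the GATA3 vector, 0.111 with the control vector and 0.0874 without a vector, against 33.4, 19.5 and 39.1 FPKM in WT Th2. Every other library, all of Th1 cells, was at 0.24 FPKM or below, and STAT4 KO with the T-bet vector was listed at 0. Only 4 of the 14 libraries reached 1 FPKM: the 3 WT Th2 libraries and the STAT6 KO library with the GATA3 vector. D430036J16Rik, a non-coding RNA annotated on the opposite strand, overlaps Htr1b, and with no stated use of strand in the counting the reads of the overlap cannot be told apart.

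Tph1, the enzyme gene of peripheral serotonin synthesis, lies on chromosome 7, 53902501 to 53927907, on the minus strand. It was at 29.3 FPKM in STAT6 KO and 2.14 FPKM in WT Th2 cells with the GATA3 vector, against 0.0691 and 0.0194 FPKM in STAT6 KO and WT Th2 cells with the control vector. The last 2 values rest on an estimated 1.84 and 0.588 fragments, so no fold is given. Of the other 10 libraries, 8 were listed at 0 and the highest had 0.0461 FPKM. Tph1 entered the fit through the GATA3-vector libraries alone, the 2 that reached 1 FPKM. Here the STAT6 KO library was the higher, with a listed interval of 27.8 to 30.9 FPKM against 1.74 to 2.54 in WT.

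The question of the STAT6 KO comparison is which Th2 transcripts depend on STAT6. In the fit over all libraries and cultures, Calcrl fell by 3.86 ± 0.39 (SE) on the log2(FPKM + 1) scale in STAT6 KO relative to WT (limma, Benjamini-Hochberg adjusted p = 0.00466; 0.0115 with the batch term) and was lower in 3 of 3 pairs. It was the 1 member of 6 called, where 0.962% of all genes tested were called (2.71% with the batch term). Htr1b had a fitted difference of -3.26 ± 0.72 (limma adjusted p = 0.0837) and was lower in 3 of 3 pairs, Penk -2.41 ± 0.81 (0.270) and lower in 2 of 3 pairs, and Ramp1 1.51 ± 0.55 (0.325; 0.0538 with the batch term) and higher in 3 of 3. None of these passed the test. Without WT Th1 replicate 2 and T-bet KO Th1, Ramp1 (limma adjusted p = 0.0228) and Htr1b (0.0499) were called besides Calcrl; without WT Th1 replicate 2 alone, Ramp1 was (0.0229). Without the STAT6 KO GATA3-vector library, WT Th2 libraries alone admit Htr1b to the fit, so its test is void. Without that library or the WT GATA3-vector one the Htr1b difference was -4.71. Without either of these the Penk difference was -3.70 (0.0716 in both fits); it was -1.20 without WT Th2 and -1.55 without STAT6 KO Th2, both without a vector (0.682 and 0.854).

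The 3 pairs did not show the same differences. For Htr1b, STAT6 KO minus WT was -0.38 on the log2(FPKM + 1) scale with the GATA3 vector, -4.21 with the control vector and -5.20 without a vector. For Penk the differences were 0.17, -2.09 and -5.30 in the same order of cultures. For Calcrl they were -2.55, -4.70 and -4.33, so that this gene alone of the 3 stayed over 2-fold lower in STAT6 KO with added GATA3. Ramp1 differed by 0.59, 1.83 and 2.10. For Tph1 the GATA3-vector pair differed by 3.27 with STAT6 KO the higher, and for Calca by 0.27. Between the libraries compared at 2-fold on this scale, 1 member was lower and 1 higher in STAT6 KO with the GATA3 vector, 3 lower and 1 higher with the control vector, and 4 lower and 1 higher without a vector. The member higher with the GATA3 vector was Tph1, which the GATA3-vector libraries alone admitted to the fit. Of all genes tested, 1.59%, 2.22% and 5.35% were 2-fold lower and 3.34%, 3.21% and 3.81% were 2-fold higher in the same pairs. The fitted STAT6 KO change therefore averages over unlike pairs, and the 1 library behind each value leaves no replicate check of a pair.

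**Figure D2:**
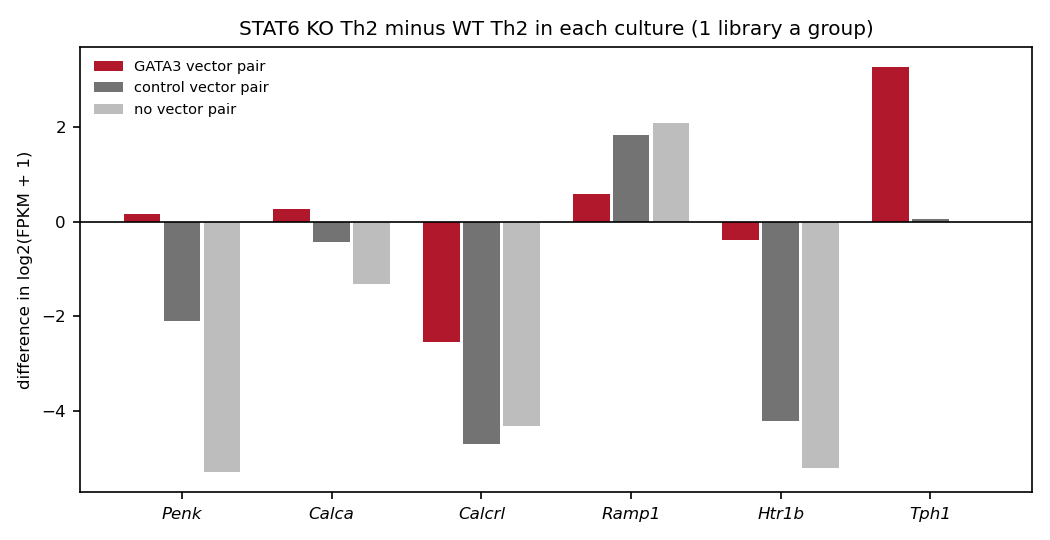
Difference in log2(FPKM + 1) between the STAT6 KO and the WT Th2 library, per member, for the GATA3-vector, control-vector and no-vector pairs; each bar sets 1 library against 1. Penk and Htr1b differ by 0.17 and -0.38 in the GATA3-vector pair and by -5.30 and -5.20 without a vector, whereas Calcrl is lower in all 3 pairs.

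The GATA3-vector comparison asks what added GATA3 does in cells with and without STAT6. Calca was the member called: relative to the control vector it rose by 4.35 ± 0.61 on the log2(FPKM + 1) scale (limma adjusted p = 0.0145; 0.00399 with the batch term) and was higher in 2 of 2 pairs, by 4.74 in STAT6 KO and 4.05 in WT. It was 1 of 6 members, where 1.05% of all genes tested were called (2.9% with the batch term). With a pseudocount of 0.1, or without any one of the 4 Th2 vector libraries, Calca was not called (limma adjusted p = 0.0694 to 0.309, and 0.00104 to 0.0397 under the other alternatives). Tph1 was higher with the GATA3 vector by 4.83 in STAT6 KO and 1.62 in WT. It is given no test here, since it passed the filter through these GATA3-vector libraries alone.

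In Htr1b, Penk and Calcrl the pairs differed more in STAT6 KO than in WT. Htr1b was higher with the GATA3 vector by 4.57 in the STAT6 KO pair and by 0.74 in the WT pair, Penk by 2.90 and 0.63, and Calcrl by 2.22 and 0.07, all on the log2(FPKM + 1) scale. Ramp1 differed by -0.82 in the STAT6 KO pair and by 0.42 in the WT pair, where the listed intervals overlapped. In the additive fit their GATA3 terms were not called (limma adjusted p = 0.341 for Htr1b, 0.825 for Penk, 0.645 for Calcrl and 0.988 for Ramp1), and Htr1b was called without the WT GATA3-vector library (4.68 ± 0.36, adjusted p = 0.00482). At 2-fold, 5 members were higher in the STAT6 KO pair and 2 in the WT pair, where 4.44% and 3.52% of all genes tested were. Tph1 is counted in both pairs, though the GATA3-vector libraries alone admitted it to the fit. No member was 2-fold lower, against 0.737% and 0.971% of all genes tested. Several members could not be: with the control vector Calca and Tph1 in both genotypes, Htr1b in STAT6 KO and Ramp1 in WT were under 1 FPKM. That is too low to fall 2-fold on this scale. With GATA3 added, the STAT6 KO library held Penk and Htr1b at 252.9 and 25.4 FPKM, against 224.2 and 33.4 in WT, but Calcrl at 20.4 against 124.0 FPKM.

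Whether the STAT6 KO difference changed with the GATA3 vector was tested by an interaction term. The term sets the GATA3-vector pair against the mean of the control-vector and no-vector pairs. It is thus not a test of the GATA3 against control vector difference between genotypes alone, as no-vector cultures also differ in day and handling. The estimates of the term were 4.32 ± 0.54 for Htr1b, 3.87 ± 1.28 for Penk and 1.97 ± 0.59 for Calcrl on the log2(FPKM + 1) scale. None of these passed the test (limma adjusted p = 0.385, 1 and 1), while each had an unadjusted p under 0.05. Of all genes tested 0.0% were called for this term, and 1.58% had an unadjusted p under 0.05. With the batch term 0.045% were called. With no filter on low values Htr1b was called (limma adjusted p = 0.0281). For Tph1 the term reads the GATA3-vector libraries that admitted the gene, and its estimate is given no test.

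**Figure D3:**
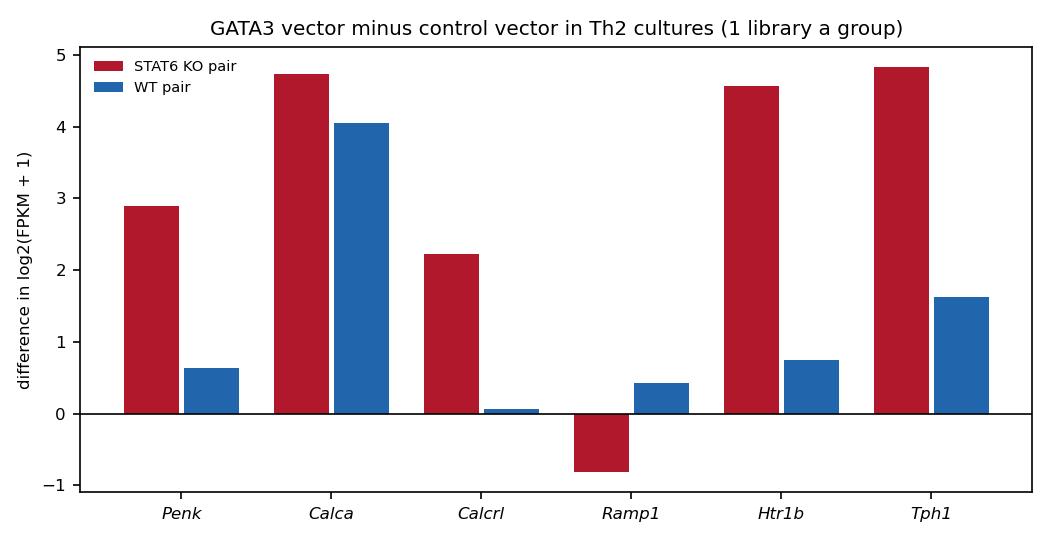
Difference in log2(FPKM + 1) between the GATA3-vector and the control-vector library, per member, in STAT6 KO (red, left) and WT (blue, right) Th2 cells; each bar sets 1 library against 1. Calca is higher by 4.74 and 4.05, Tph1 by 4.83 and 1.62, and Htr1b by 4.57 and 0.74.

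Some genes of mast cells, a known source of serotonin in mice, and of basophils, chiefly Hdc and Mcpt8, were also higher in the GATA3-vector libraries. The 14 listed markers of these cells summed to 149.6 to 332.6 FPKM in the GATA3-vector libraries, against 1.48 to 10.8 FPKM in the other Th2 and 1.01 to 11.9 FPKM in the Th1 libraries. Hdc and Mcpt8 made up most of the sum in the GATA3-vector libraries. Just 4 of the 14 reached 1 FPKM in any library. Among those that stayed below it were Cma1, Tpsb2, Tpsab1, Mcpt1, Mcpt2 and Mcpt4. Hdc, the histamine-forming enzyme, was at 102.9 FPKM in STAT6 KO and 262.6 in WT cells with the GATA3 vector, against 0.485 and 0.503 in the control-vector libraries. Mcpt8, a basophil granule protease, was at 42.7 and 59.2 FPKM with the GATA3 vector, against 0 and 0.0941 in the control-vector libraries. Cpa3, a mast cell protease, was at 2.34 and 9.64 FPKM with the GATA3 vector, but also at 10.2 FPKM in WT Th2 without a vector, where Tph1 was listed at 0. The defining receptor chains were at or near 0: Fcer1a was listed at 0 in all 14 libraries, and Ms4a2 at 0 in both GATA3-vector libraries. Kit, at 1.1 and 0.328 FPKM with the GATA3 vector, was highest in WT Th1 replicate 1 with 10.8 FPKM. In bulk RNA, more cells of a type and more RNA per cell cannot be told apart, and the part of other cells in the Calca and Tph1 levels was not tested.

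**Figure D4:**
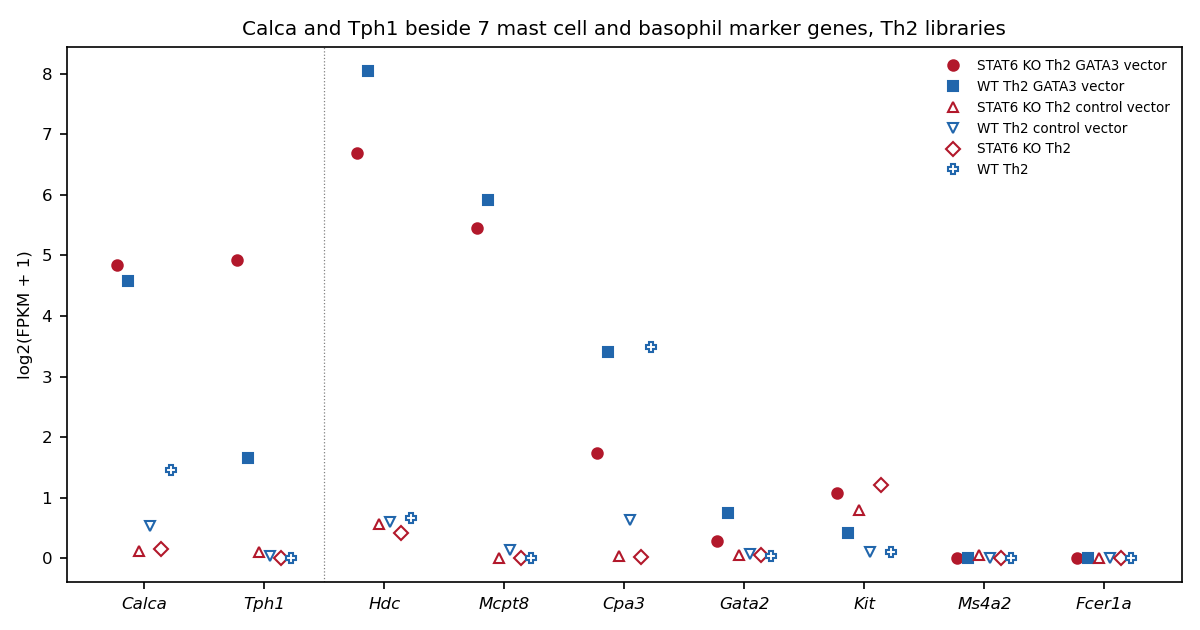
Levels of Calca and Tph1 (left of the dotted line) and of 7 of the 14 listed mast cell and basophil markers, as log2(FPKM + 1), in the 6 Th2 libraries. Filled symbols are GATA3-vector libraries, red is STAT6 KO and blue WT. Hdc and Mcpt8 are high in the filled symbols together with Calca and Tph1, and Ms4a2 and Fcer1a lie at or near 0 throughout.

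Between lineages, members are described without a test. Without a vector, Penk was at 91.8 FPKM in WT Th2 against 0.543 in WT Th1 replicate 1, Calcrl at 95.4 against 2.77 and Htr1b at 39.1 against 0.159, whereas Ramp1 was at 1.52 against 5.29. With the control vector Penk was at 144.3 FPKM in WT Th2 and 19.0 in WT Th1, Calcrl at 118.2 and 3.66, Htr1b at 19.5 and 0.225, and Ramp1 at 0.958 and 2.98. The Penk difference was thus smaller in the vector cultures, 2.86 against 5.91 on the log2(FPKM + 1) scale, where the Th1 level was higher. At 2-fold on that scale, 3 members were higher and 1 lower in Th2 in either culture, where 8.0% and 6.47% of all genes tested were higher and lower without a vector, and 1.74% and 4.72% with the control vector. Against WT Th1 replicate 2, which had 27.7 FPKM of Ramp1 and 5.58 of Calca, the WT Th2 libraries without a vector and with the control vector were lower in both genes.

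For the Th1 factors, no member was called. In limma 0 of 6 members passed for STAT4 KO, for T-bet KO, for the T-bet vector or for the interaction of STAT4 KO with the T-bet vector, and 0 had an unadjusted p under 0.05. Of all genes tested, 0.728%, 0.018%, 0.0% and 0.00899% were called in these, and 15.7%, 14.5%, 1.35% and 0.45% had an unadjusted p under 0.05. No member differed 2-fold on the log2(FPKM + 1) scale in any of the 3 STAT4 KO pairs or the 2 T-bet vector pairs. Such a difference could be seen only for Penk, Calcrl and Ramp1. In the libraries of these pairs Calca, Htr1b and Tph1 were at 0.767 FPKM or below, too low to differ 2-fold on this scale. There, with the T-bet vector, with the control vector and without a vector, 0.854%, 0.917% and 3.63% of all genes tested were 2-fold higher in STAT4 KO and 2.75%, 3.32% and 4.37% lower. Relative to the control vector, 0.584% were higher and 0.917% lower with the T-bet vector in STAT4 KO, and 0.342% higher and 0.234% lower in WT. Calcrl was at 4.47, 6.93 and 2.78 FPKM in STAT4 KO with the T-bet vector, with the control vector and without a vector, against 3.29, 3.66 and 2.77 FPKM in WT (1.5 in WT Th1 replicate 2). Penk was at 26.8 FPKM in STAT4 KO and 26.9 in WT cells given the T-bet vector, against 17.9 in STAT4 KO and 19.0 in WT given the control vector. Ramp1 was at 1.73 and 1.37 FPKM with the T-bet vector in STAT4 KO and WT cells, against 3.76 and 2.98 with the control vector, listed intervals that did not overlap in either genotype. The T-bet KO library compared with WT Th1 differently by replicate: Ramp1 was at 32.9 FPKM, against 27.7 in replicate 2 and 5.29 in replicate 1. In the fit Ramp1 differed by 1.62 ± 0.78 in T-bet KO (limma adjusted p = 0.337); without WT Th1 replicate 2 it was called at 2.37 ± 0.42 (0.00301), and with the batch term it differed by 0.24 (0.938). The batch of these libraries and T-bet loss cannot be told apart in the comparison with replicate 1.

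Of the other genes of these pathways, most were under 1 FPKM. In all, 4 lists held 92 genes, 86 besides the members; 85 were measured, 62 were under 1 FPKM in every library, and 19 passed the filter. For the opioid list 4 of 14 measured genes were tested, for the CGRP family 2 of 9, for the serotonin pathway 7 of 27 and for other neuropeptides 6 of 35. Over the 6 contrasts of the additive fit the one call was S100a10, whose product binds the HTR1B receptor: it fell by 1.53 ± 0.32 in Th2 relative to Th1 (limma adjusted p = 0.0393; 0.051 with the batch term), where 3.21% of all genes tested were called (6.83% with the batch term). In Th2 cells S100a10 was at 384.4, 263.7 and 670.7 FPKM in STAT6 KO with the GATA3 vector, with the control vector and without a vector, against 74.3, 105.1 and 341.5 FPKM in WT (1.55 ± 0.30, limma adjusted p = 0.0582). All 3 pairs had the higher level in STAT6 KO, as for Ramp1. The median change of the 19 genes was -0.184 for Th2 against Th1, 0.0552 for STAT4 KO, -0.0815 for T-bet KO, 0.079 for STAT6 KO, -0.0595 for the T-bet vector and 0.376 for the GATA3 vector, where that of all genes tested was -0.0386, 0.0412, -0.0696, 0.0352, -0.0211 and 0.0087, all on the log2 scale.

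Ramp3, the partner with which Calcrl forms an adrenomedullin receptor, was more abundant than Ramp1 in most libraries, between 4.45 and 74.8 FPKM. In Th2 cells it was at 74.8, 8.43 and 4.45 FPKM in STAT6 KO with the GATA3 vector, with the control vector and without a vector, against 31.3, 50.2 and 30.95 FPKM in WT. In Th1 cells it was at 7.94, 13.4 and 10.2 FPKM in STAT4 KO with the T-bet vector, with the control vector and without a vector, against 72.3, 74.2 and 23.7 FPKM in WT, and 60.8 in WT Th1 replicate 2 (-2.35 ± 0.65, limma adjusted p = 0.142). STAT4 KO was lower in 3 of 3 pairs, a difference that did not pass the test. Ramp2, the third partner, was at 0.169 FPKM or below throughout. Crcp, a further component of CGRP receptors that also belongs to RNA polymerase III, lay between 21.6 and 29.2 FPKM in all libraries.

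Of the genes that process or degrade enkephalins, Furin, a proprotein convertase, lay between 99.7 and 3638 FPKM, highest in T-bet KO Th1 and WT Th1 replicate 2; its Th2 difference of -2.77 ± 0.66 was not called (limma adjusted p = 0.0597; 0.0476 with the batch term). Dpp3, a peptidase that cleaves enkephalins, lay between 12.98 and 29.6 FPKM. The other processing and degrading genes of the list were low. Pcsk1 was at 0.186 FPKM or below and Pcsk2 at 0.0251 or below, and Cpe ran between 0.01 and 8.58 FPKM. Mme was at 0.00757 FPKM or below and Anpep at 0.443 or below. The opioid receptor gene Oprm1 was at 0.0251 FPKM or below. Tryptophan hydroxylase needs tetrahydrobiopterin, and the genes that make it were expressed throughout: Gch1 at 24.1 to 65.8, Pts at 6.85 to 17.1 and Spr at 4.83 to 19.2 FPKM. Gch1, whose enzyme limits that synthesis, was at 65.8 and 61.1 FPKM in STAT6 KO and WT cells with the GATA3 vector, against 36.9 and 31.3 in the control-vector libraries (1.06 ± 0.27, limma adjusted p = 0.149). Qdpr, which regenerates the cofactor, had 61.3, 66.2 and 42.2 FPKM in STAT4 KO with the T-bet vector, with the control vector and without a vector, against 43.1, 40.35 and 21.6 in WT, and 22.0 in WT Th1 replicate 2 (0.75 ± 0.15, limma adjusted p = 0.0743). With the batch term Qdpr rose by 0.71 (0.0409), where 3.49% of all genes tested were called. Nmb, which encodes neuromedin B, lay between 2.74 and 12.7 FPKM.

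Of the next steps of the serotonin pathway, Ddc, the decarboxylase after Tph1, and Slc6a4, the serotonin transporter, are named for values seen in the data. Ddc was at 0.945 and 3.77 FPKM in STAT6 KO and WT cells with the GATA3 vector, against 0.242 and 0.339 in the control-vector libraries, and at 0.467 in STAT6 KO and 1.86 in WT Th2 without a vector. Slc6a4 was at 0.241 and 3.45 FPKM with the GATA3 vector in STAT6 KO and WT cells, against 0.0518 and 0.163 with the control vector. Both were higher in the WT than in the STAT6 KO library of the GATA3 pair, where Tph1 was higher in STAT6 KO. Cck, the cholecystokinin gene and likewise named for its values, was at 0.0645 and 8.49 FPKM in STAT6 KO and WT cells with the GATA3 vector and listed at 0 in the other 12 libraries. Ddc was tested, and its GATA3 term of 1.08 ± 0.29 was not called (limma adjusted p = 0.184). Its STAT6 KO term is given no test, as WT Th2 libraries alone admitted the gene. Neither Slc6a4 nor Cck had 2 libraries at 1 FPKM, and so neither was tested.

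Transcripts around Htr1b were also lowest in the STAT6 KO Th2 libraries without added GATA3, among Th2 libraries. D430036J16Rik, which overlaps it, was at 2.65 and 2.55 FPKM in STAT6 KO and WT Th2 with the GATA3 vector, and with the control vector it was near 0 in STAT6 KO and at 0.919 FPKM in WT. Without a vector it was at 0.0182 FPKM in STAT6 KO Th2 and 5.09 in WT Th2. Mei4, the next gene, 231.2 kb away, was at 0.738, 0.0737 and 0.0122 FPKM in STAT6 KO with the GATA3 vector, with the control vector and without a vector, against 0.919, 0.879 and 1.9 FPKM in WT Th2, and at 0.0294 or below in Th1. Impg1, the next gene on the other side, reached 0.316 FPKM at most. In the Th2 libraries Tfpi, next to Calcrl, ran between 1.49 and 5.09 FPKM. Sergef ran between 1.77 and 3.88 and Saal1 between 1.75 and 3.04 FPKM, both beside Tph1.

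**Figure D5:**
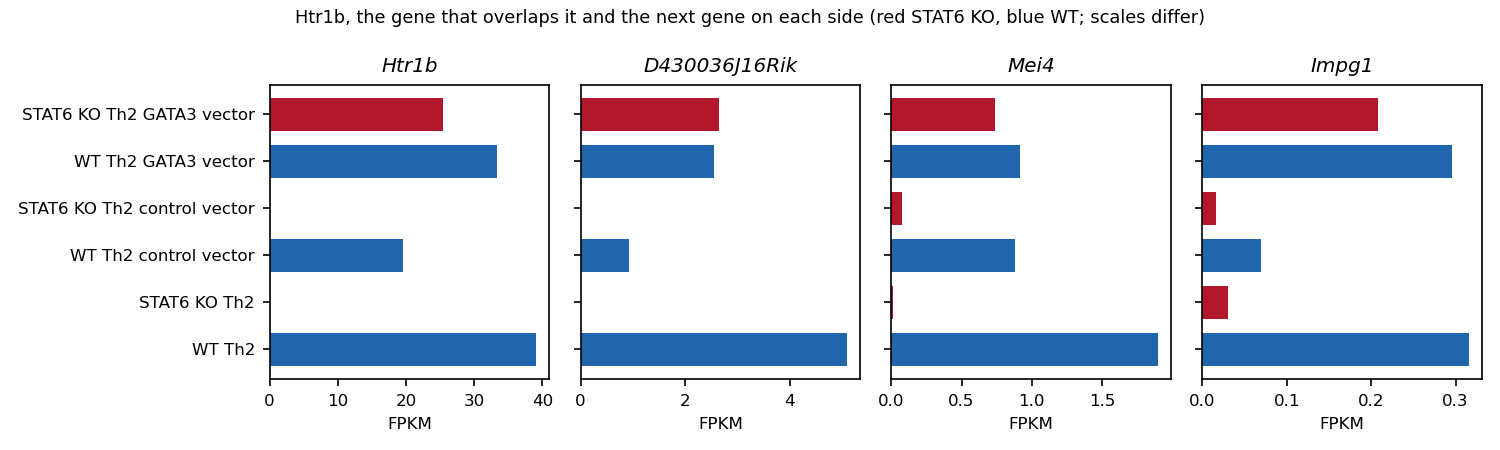
FPKM of Htr1b, of the non-coding RNA gene D430036J16Rik that overlaps it, and of the next genes Mei4 and Impg1 in the 6 Th2 libraries (red STAT6 KO, blue WT); each bar is 1 library and each panel has its own scale. In all 4 panels the STAT6 KO libraries with the control vector and without a vector are the lowest, at 0.111 and 0.0874 FPKM for Htr1b.

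Over the 14 libraries, which share each library's depth and culture among all genes, log2(FPKM + 1) of Calcrl and Htr1b correlated at 0.939, of Penk with Calcrl at 0.798 and with Htr1b at 0.79, and of Calca with Tph1 at 0.797, while Ramp1 correlated at -0.647 with Calcrl and -0.739 with Penk. Among all other genes tested, those most like Calcrl were Nrp2 (0.98), 1520402A15Rik (0.976) and the cytokine gene Il6 (0.959). Nrp2 (0.97), Il6 (0.969) and Rnf128 (0.969) were most like Htr1b. Penk was most like St3gal2 (0.957), Eml1 (0.956) and Ptpn3 (0.944), and Calca most like Lxn (0.964), Hey1 (0.961) and Vat1 (0.961). Tph1 was most like Eepd1 (0.992), Aard (0.985) and Frmd4a (0.974). These coefficients, and that of Calca with Tph1, rest on the GATA3-vector libraries, as Tph1 was near 0 in the other 12. Ramp1 was most like Irak2 (0.971), Rims3 (0.961) and H2-K2 (0.961). Without WT Th1 replicate 2 and T-bet KO Th1, Ramp1 was most like Rims3 (0.976), Nsg2 (0.957) and Dapl1 (0.952). Calca was then most like Hey1 (0.989), Dmpk (0.989) and Scel (0.987), which reached no more than 2.07, 1.76 and 1.64 FPKM. These Calca coefficients rest mainly on the GATA3-vector libraries, as Calca was at 1.75 FPKM or below in the rest of the 12. Over these 12 libraries Calcrl was most like Nrp2 (0.984), 1520402A15Rik (0.974) and Cacna1c (0.97), and Htr1b most like Ptpn13 (0.976), Rnf128 (0.974) and Il6 (0.968), with no gene in both lists.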

How the data were processed

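RNA of 14 libraries was measured by TruSeq single-read sequencing, per the labels' protocols. TopHat, Cufflinks and mm9 are named in the submitters' processing notes, without versions or a gene annotation; use of strand is not stated. The deposited gene tables hold FPKM with an interval, computed by the authors with Cufflinks, per the file headers. Listed starts are 0-based and are printed 1-based. No counts are given; the fragments behind a value were estimated from the width of its interval, which assumes counting error only. The ChIP samples are not analysed here.

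The 6 members and the gene lists were chosen with earlier results of these data known. The 11121 genes that reached 1 FPKM in 2 or more libraries without a failed estimate were tested with limma 3.58.1 in R 4.3.3 (eBayes with trend) on log2(FPKM + 1), a scale that understates changes of low genes. A single additive model took in all 14 libraries, with a term for lineage, 1 for being a vector culture, 3 for the knockouts and 2 for the T-bet and GATA3 vectors (6 residual degrees of freedom); a second fit added the knockout by vector interactions. Calls needed a Benjamini-Hochberg adjusted p below 0.05, adjusted over all genes tested. The model was tested on simulated data drawn from the same additive model, without a batch effect or interactions. That test could not show how the fit fares with unlike pairs or with libraries that stand apart. Besides members, pathway genes were named where called or at a mean of 5 FPKM or more. Calcb, Ramp2, Oprm1, Pcsk1, Pcsk2, Cpe, Mme, Anpep, Ddc, Slc6a4 and Cck fall outside this rule and were chosen after their values were seen. Also named are the 3 genes most correlated with each member. Alternatives were 2 pseudocounts, 2 filters, 2 scalings, a batch term, eBayes without trend, and fits without single libraries or without both that stood apart.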

Additional observations from a re-analysis of the deposited data

Results flagged for a closer look

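The STAT6 KO minus WT difference of Penk ran in opposite directions between cultures. It was 0.17 on the log2(FPKM + 1) scale with the GATA3 vector and -2.09 with the control vector, 2.26 apart. Against the pair without a vector, at -5.30, the GATA3-vector pair was 5.47 apart. Neither gap was tested by itself. The interaction term sets the GATA3-vector pair against the mean of the control-vector and no-vector pairs. For Penk that term was 3.87 ± 1.28 and did not pass the test (limma adjusted p = 1). Calca differed by 0.27 with the GATA3 vector and by -1.32 without a vector, 1.59 apart, likewise not tested by itself. Each of these pairs sets 1 library against 1. Vector and no-vector cultures also differ in their day and handling, which cannot be told apart from the vector.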

How the results depend on the processing

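Of 27 member estimates of at least 0.5 on the log2 scale, recomputed under up to 23 other settings, 2 changed sign, and 18 values gained and 5 lost a call. The 18 gained calls include void ones, of Tph1 and of Htr1b, which are set out below. Without the STAT6 KO GATA3-vector library, the GATA3 term was -0.41 for Penk and -0.025 for Calcrl; it ranged up to 3.46 and 1.94 without other single libraries. The cause was not tested. That fit sets the only GATA3-vector library left, of WT cells, against the level that the additive model fits from all other libraries. In the WT pair itself the difference was 0.63 for Penk and 0.07 for Calcrl. Calcrl kept its STAT6 KO call under every setting run (-4.52 to -3.43, limma adjusted p = 0.00175 to 0.0491). Members called for STAT6 KO numbered 3 without both libraries that stood apart, and 1 to 2 without single libraries. The Htr1b call without the STAT6 KO GATA3-vector library is void, as WT Th2 libraries alone admitted the gene there. For the GATA3 vector 2 were called at a pseudocount of 0.5, without both libraries that stood apart, or with eBayes without trend, and 0 to 2 without single libraries; without the WT GATA3-vector library the one called was Htr1b. For the STAT6 KO by GATA3 vector interaction 2 were called with no filter, 1 with the batch term, 1 without both, and 0 to 1 without single libraries. Except for Htr1b, these further calls of the GATA3 vector and of the interaction were Tph1, whose test is void because the GATA3-vector libraries alone admitted it. For T-bet KO 0 to 1 were called without single libraries. Tph1 could not be tested without either GATA3-vector library or at a filter of 3 FPKM. No paired analysis was possible because the RNA groups share fewer than 2 replicate numbers. Levels below about 0.1 FPKM rest on a few fragments.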
